A study of Homo sapiens with 18 samples.

Results

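The late response of A549 cells to AS30 silica NPs was described from 6 of the 18 arrays of the series, chosen by their labels. A549 is an established line derived from a human lung adenocarcinoma and keeps features of the alveolar epithelium. The 3 treated cultures, named A, B and C, received AS30, Ludox particles of colloidal amorphous silica with a diameter of 18 nm, at 0.02 mg/mL for 2 h in medium without serum, and were left for 22 h in complete medium. The 3 control cultures, also named A, B and C, received no particles but had the 2 h in medium without serum and the 22 h in complete medium as well. All cultures came from 1 cell line, and RNA was hybridised to one-colour Agilent arrays of human transcripts. The other groups of the series are AS30 at 3 h of recovery and the smaller SM30 particles (9 nm) at 3 h, each with 3 controls of its own, and they are used below only for contrast.

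Each level is a log2 signal after quantile normalization, and each ratio is the level of a treated array minus that of the control array with the same letter, so that a log2 ratio of 1 is a doubling. A probe is called here when the mean of its measured ratios passed an adjusted p of 0.05 in limma, and "higher" and "lower" refer to treated against control cells. Of the 41000 probes on the array 28155 were tested. Of the 1008 calls 860 rest on 3 ratios, 72 on 2 and 76 on 1, and a call on 1 ratio has no spread of its own at 22 h and takes it from the 3 h pairs. On the treated arrays A, B and C 64.5%, 56.9% and 67.0% of spots were well above background, and 51.9% to 58.4% on the controls. Treated array B thus lay within the range of the controls. Whether this bears on the smaller ratios of pair B below was not tested. The treated arrays A, B and C and the control C lay on 1 slide and the controls B and A lay on a slide each with arrays of the 3 h groups, so that treatment and slide are separated within pair C alone. The SD of the ratios over probes was 0.73 in pair A, 0.56 in pair B and 0.54 in pair C, and the ratios of A and C correlated with r = 0.45 over 24743 probes, against 0.30 for A and B and 0.29 for B and C, a description in which probes are not independent and the treated arrays share a slide. Of 9 epithelial and alveolar markers 7 were well above background on all 6 arrays. They were the general epithelial genes EPCAM, CDH1, KRT7, KRT8, KRT18 and KRT19 and, of the lung genes, SFTPC, whereas NKX2-1 missed 1 control array and SFTPB was well above background on none. The summed linear signal was 284390 to 362950 in treated cells and 266520 to 310380 in controls.

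Cholesterol is made in the endoplasmic reticulum by a chain of enzymes that turns acetyl-CoA into mevalonate, then squalene, then sterols. The genes of these enzymes are commonly controlled together by SREBP transcription factors, which are held in the membrane by SCAP and INSIG proteins when sterols are plentiful and are released when sterols are scarce. Lysosomes hydrolyse material taken up from outside the cell, lipids included, and are where many endocytosed particles arrive.

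After AS30 at 22 h, 1008 probes were called (3.58% of those tested), 716 of them higher (2.54%) and 292 lower (1.04%). With 1 probe per gene, the unit in which the lists below are counted, 566 of 20868 genes were higher (2.71%) and 235 were lower (1.13%), and the median log2 ratio of all genes was -0.01. The call count depended on single pairs. It was 2 without pair A and 184 without pair C, and 1205 without pair B. A fit that held slide as a block gave 29 calls. The lists are therefore described by their ratios in each pair as well as by calls.

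The enzymes of cholesterol synthesis rose together. Of the 22 measured enzymes listed for the pathway, GGPS1 of a side branch included, 18 were called higher and 0 lower, with folds of 1.83 to 5.63, where 2.71% of all genes were called higher. The log2 ratios of 17 of these enzymes, those described singly here, ran from 1.08 to 3.44 in pair A, from 0.26 to 1.40 in pair B and from 1.20 to 2.79 in pair C. Pair B had the smallest ratio for all 18. Treated and control levels did not overlap for 16 of them, but these genes were already chosen as called. The share without overlap over all genes was not counted. In pair C, whose arrays shared a slide, the median ratio was 1.83 over the enzymes up to squalene and 1.64 over the later ones, and when slide was held as a block the medians over all pairs were 1.52 and 1.29 with 0 enzymes called. Without pair A none of the 18 was called, and without pair C 3 were.

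**Figure D1:**
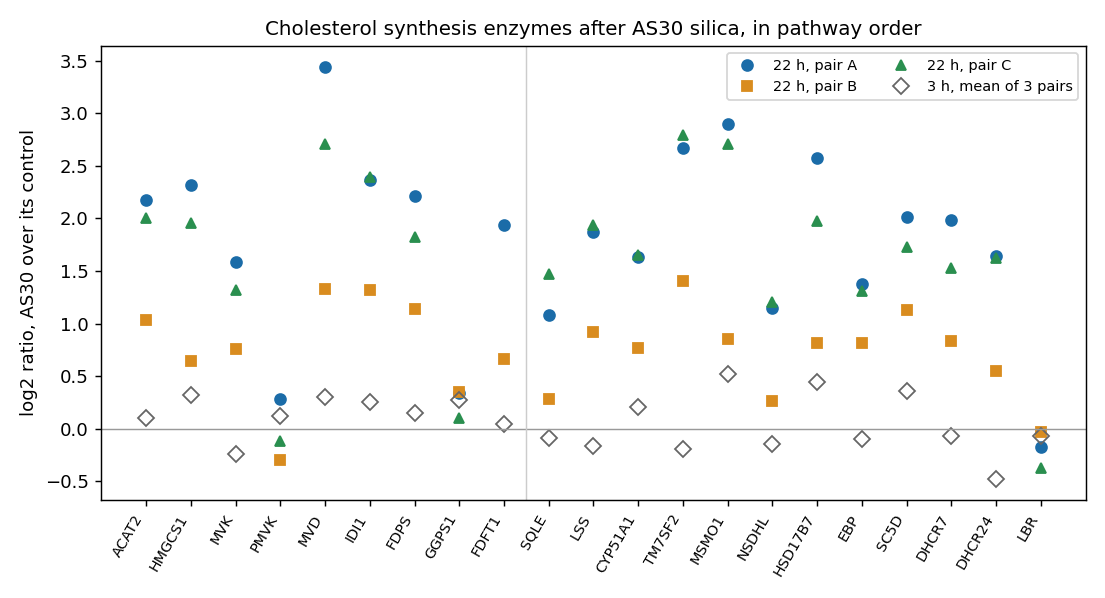
Log2 ratio of AS30-treated over control cells (y axis) for 21 of the 22 measured enzymes of cholesterol synthesis (x axis, in pathway order, with a line between those up to squalene and the later ones). Filled symbols are the 3 pairs at 22 h and open diamonds the fitted mean of 3 pairs at 3 h. Pair B lies below pairs A and C for all 17 called enzymes drawn, and PMVK, GGPS1 and LBR stay near 0.

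Among the early steps, ACAT2 condenses acetyl-CoA units and HMGCS1 makes HMG-CoA. Their ratios were 1.74 ± 0.21 and 1.64 ± 0.28 (mean of 3 pairs ± SE of the fit, adjusted p = 0.017 and 0.026 in limma). Treated and control levels did not overlap for either. Each SE and interval here and below uses a spread pooled with the 3 h pairs, not that of the 22 h pairs alone. When the 3 ratios at 22 h were fitted alone, 0 probes were called. MVK phosphorylates mevalonate and rose by 1.22 ± 0.16, whereas PMVK, which adds the next phosphate, had a ratio of -0.04 ± 0.13 with a 95% interval of -0.33 to 0.25.

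MVD, which decarboxylates mevalonate diphosphate, had the largest rise of the pathway. Its probe lies at 87246486 to 87247239 of chromosome 16 on build hg18. Its levels were 12.97, 10.95 and 12.30 in treated cultures A, B and C and 9.53, 9.62 and 9.59 in controls. The controls lay close together, and every treated level was above them, with B the lowest. The ratio was 2.49 ± 0.33 (adjusted p = 0.018). IDI1, the isomerase of the next step, rose by 2.03 ± 0.44 and FDPS, which makes farnesyl diphosphate, by 1.72 ± 0.22. FDPSP2 also rose, by 2.04 ± 0.25, but it is a pseudogene of FDPS with a near-identical sequence, so its signal cannot be assigned to one of them. GGPS1, which leads to protein prenylation rather than to sterols, had a ratio of 0.27 ± 0.12 (adjusted p = 0.22). FDFT1, the squalene synthase, had ratios of 1.94 and 0.66 in pairs A and B and no measured control in pair C, and its adjusted p was 0.056.

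Of the 12 enzymes from squalene to cholesterol, 11 were called higher. SQLE, the squalene epoxidase, had the smallest rise but one, 0.95 ± 0.20, and its groups overlapped. LSS, which closes the sterol ring, rose by 1.57 ± 0.20, and its 3 other probes were all called higher with ratios of 1.78 to 2.20. TM7SF2, a sterol reductase, had levels of 14.43, 12.65 and 14.10 in treated cultures A, B and C and of 11.76, 11.25 and 11.30 in controls. The groups lie apart by almost a log2 unit at their nearest, treated B against control A. The ratio of TM7SF2 was 2.29 ± 0.25 (adjusted p = 0.016), with the probe at 64640165 to 64640224 of chromosome 11 on hg18. LBR, a lamin B receptor that catalyses the same reduction and also holds chromatin to the nuclear envelope, had a ratio of -0.19 ± 0.11 and was the only member not called. The other members rose by 0.87 ± 0.18 (NSDHL) to 2.15 ± 0.34 (MSMO1), the last a demethylase of ring carbon 4 with levels of 11.06, 9.13 and 10.79 against 8.16, 8.28 and 8.09 in controls.

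Genes that move together can share promoter elements, and sequences of 3 of the steepest risers are shown for that reason. They are taken from the RefSeq promoter table on build GRCh38.p14, which holds 17 of the 22 enzymes, and are cut to the stretch around the matches upstream of the start site. Capitals mark CCAAT or its reverse complement ATTGG, the box bound by NF-Y, a factor known to work beside SREBP. The stretches are chr16:88663112-88663310 on the minus strand for MVD, chr11:65111738-65111862 on the plus strand for TM7SF2 and chr4:165327424-165327668 on the plus strand for MSMO1.
MVD: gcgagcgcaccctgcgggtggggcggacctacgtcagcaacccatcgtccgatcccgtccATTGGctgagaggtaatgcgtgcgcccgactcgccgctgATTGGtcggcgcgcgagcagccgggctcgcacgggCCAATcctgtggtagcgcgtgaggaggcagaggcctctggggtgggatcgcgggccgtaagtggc
TM7SF2: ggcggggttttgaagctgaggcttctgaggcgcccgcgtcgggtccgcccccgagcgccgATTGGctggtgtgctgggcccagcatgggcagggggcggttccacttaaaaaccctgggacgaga
MSMO1: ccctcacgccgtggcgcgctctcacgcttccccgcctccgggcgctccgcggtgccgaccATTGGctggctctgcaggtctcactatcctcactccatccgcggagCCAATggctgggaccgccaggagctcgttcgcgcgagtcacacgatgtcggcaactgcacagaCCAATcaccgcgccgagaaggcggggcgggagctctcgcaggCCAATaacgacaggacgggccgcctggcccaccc

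Within 250 bases upstream, 12 of the 17 enzyme promoters (70.6%) held a CCAAT match on either strand, against 33% of all 27305 promoters, and 8 (47.1%) held 2 or more, against 10%. MVD had 3 matches and MSMO1 had 4. All 12 genes with a match were called higher. Of the 5 without, IDI1 and CYP51A1 were called higher and PMVK, GGPS1 and LBR were not called. The sterol response element core TCACNCCAC was found in 0 of the 17, and in 0.875% of all promoters. These are counts of letters in a fixed window, of 4 motifs that were searched.

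SREBP targets beyond the enzymes moved less evenly. INSIG1, which retains the SREBP complex in the endoplasmic reticulum and is itself induced by SREBP, had levels of 12.64, 10.83 and 12.32 in treated cultures against 9.77, 9.68 and 9.97 in controls. The groups did not overlap, and the ratio was 2.13 ± 0.28 (adjusted p = 0.018). STARD4, a cytosolic carrier of cholesterol, rose by 1.24 ± 0.21 and NPC2, which binds cholesterol inside the lysosome, by 0.87 ± 0.17.

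Of the 19 genes of this group 3 were higher and 1 lower, where 2.71% and 1.13% of all genes were. The median log2 ratio was 0.31. The lower one was ABCG1, a cholesterol exporter, at -0.96 ± 0.19 (adjusted p = 0.040), a dim gene that was well above background on 2 of 3 treated and 1 of 3 control arrays. The exporter ABCA1 had ratios of -1.07, 0.28 and -0.36 and was not called. The transcription factors themselves had ratios of 0.64 ± 0.18 for SREBF2 (adjusted p = 0.085) and -0.21 ± 0.15 for SREBF1, and the ratio of SCAP was 0.01 ± 0.11. The site 1 and site 2 proteases that release SREBP, MBTPS1 and MBTPS2, stood at 0.12 ± 0.13 and 0.14 ± 0.21.

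Fatty acid synthesis rose in part. Of 21 measured genes 7 were called higher and 0 lower, where 2.71% of all genes were called higher. The median ratio was 0.65, at 0.87 in pair A, 0.34 in pair B and 0.64 in pair C. ACSS2, which makes acetyl-CoA from acetate in the cytosol, had the largest rise of all genes measured well on the 6 arrays. Its levels were 13.34, 10.80 and 12.93 in treated cultures A, B and C and 9.34, 9.35 and 9.60 in controls. Controls were almost level, and the treated culture B rose least. The ratio was 2.93 ± 0.38 (adjusted p = 0.018), a 7.60-fold difference, and a second probe was called higher at 1.77. The ACSS2 probe lies at 32979004 to 32979062 of chromosome 20 on hg18.

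The other called genes of the group were the lipin LPIN1 (1.51), the lipase PNPLA3 (1.60), the elongase ELOVL6 (1.50), the acyl-CoA synthetase ACSL4 (1.18) and the desaturases FADS1 (0.96) and FADS2 (0.72). Treated and control levels did not overlap for any of the 7, which were already chosen as called. A second LPIN1 probe had a ratio of 0.92 and was not called. The central enzymes of the pathway were not called. ACLY, which supplies cytosolic acetyl-CoA from citrate, had a ratio of 0.42 ± 0.14 (adjusted p = 0.13), ACACA 0.30 ± 0.15 (0.29), FASN, the synthase, 0.85 ± 0.24 (0.084) and SCD, the stearoyl-CoA desaturase, 0.70 ± 0.25 (0.15). FASN had ratios of 1.50, 0.18 and 0.86, again with pair B lowest. Without pair A or without pair C 0 of the 7 calls were left, and without pair B 10 genes were called.

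**Figure D2:**
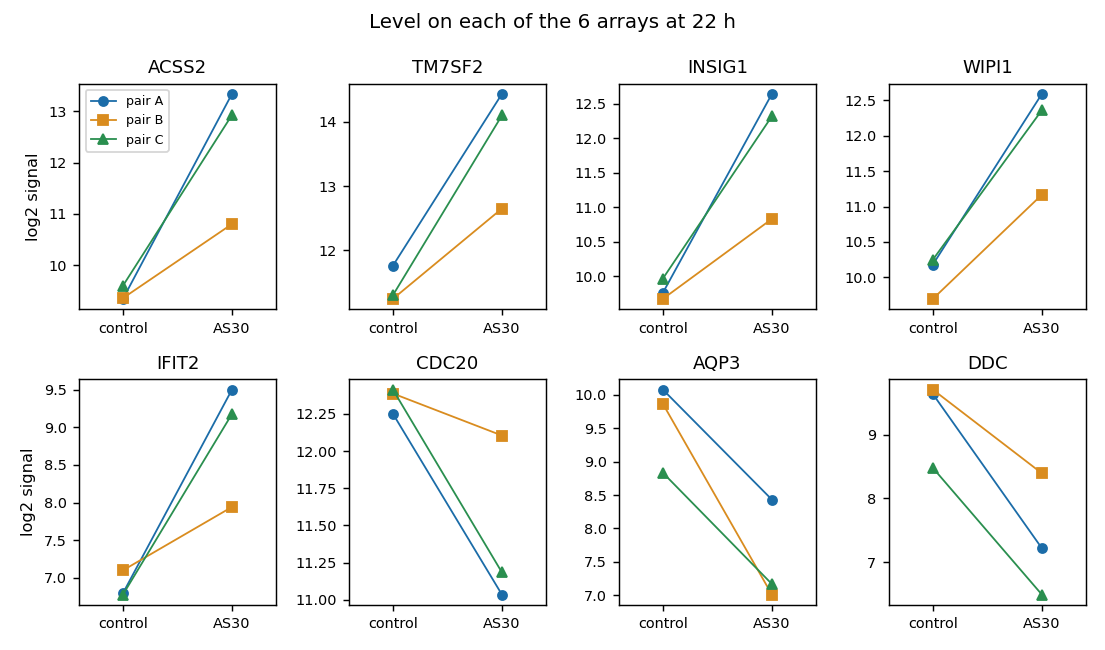
Log2 signal (y axis, a separate scale in each panel) on the 6 arrays at 22 h for 8 genes, with a line from the control to the AS30-treated culture of the same letter. ACSS2, TM7SF2, INSIG1, WIPI1 and IFIT2 are higher and CDC20, AQP3 and DDC are lower in every pair, and pair B has the flattest line for all but AQP3.

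Part of the genes of lysosomes and autophagy rose as well. Of 36 measured genes 9 were called higher and 0 lower, with folds of 1.76 to 4.0, where 2.71% of all genes were called higher. The list's median ratio was 0.59 in pair A, 0.22 in pair B and 0.58 in pair C, against 0.01, 0.00 and -0.01 over all probes. WIPI1, which binds the phosphoinositide of forming autophagosomes, had levels of 12.59, 11.17 and 12.36 in treated cultures and of 10.18, 9.70 and 10.25 in controls. The groups lay apart by about a log2 unit. Its ratio was 2.00 ± 0.21 (adjusted p = 0.014). NEU1, a sialidase, rose by 1.89 ± 0.27, ASAH1, the acid ceramidase, by 1.06 ± 0.18 and CTSL, a cathepsin, by 1.01 ± 0.20.

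LIPA, the acid lipase that frees cholesterol and fatty acids from LDL lipids, was added to the named genes after its values were seen. It had ratios of 1.02, 0.80 and 1.19 in pairs A, B and C, with a mean of 1.00 ± 0.12 (adjusted p = 0.017). All 3 treated levels lay above all 3 control levels. The lysosomal master regulator TFEB had a ratio of -0.32 and was not called. Promoters with the letters TCACGTGA, the site known for TFEB, made up 5 of the 25 genes of the list in the RefSeq table (20%) and 0.89% of all promoters, and none of the 5 genes (LAMP1, CTSA, GAA, MCOLN1 and ATP6V0D1) was called. Of the 9 calls 0 were left without pair A and 1 without pair C, and 14 genes were called without pair B. When slide was held as a block the median was 0.37 and 0 genes were called. The 27 genes of endocytosis and particle uptake had a median of 0.00 with 0 called in either direction.

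Interferon-stimulated genes, the antiviral set switched on by interferon signalling, were higher in a subset. Of 38 measured genes 7 were called higher and 0 lower, where 2.71% of all genes were called higher. The median ratio was 0.43, at 0.58, 0.23 and 0.49 in pairs A, B and C. IFIT2, an RNA-binding protein that restrains translation, had levels of 9.50, 7.94 and 9.17 in treated cultures and of 6.80, 7.10 and 6.78 in controls. No levels overlapped, and the ratio was 1.98 ± 0.32 (adjusted p = 0.023). For IFIT3 no control array was well above background, and the treated mean was at least 3.20-fold higher (adjusted p = 0.047). Its ratios were 2.55, 0.52 and 2.54 in pairs A, B and C. OASL had no control array well above background either and ratios of 0.91 and 2.85 in pairs B and C, with none in pair A (adjusted p = 0.0499). MX2 was called on the ratio of pair C alone, and no array of either group was well above background. STAT2 and SAMD9 were the remaining calls beside IFIT1.

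IFIT1, which recognises foreign RNA caps, had levels of 9.91, 8.85 and 9.55 in treated cultures and of 8.25, 7.61 and 7.75 in controls. Its ratios of 1.65, 1.24 and 1.80 gave a mean of 1.56 ± 0.19 (adjusted p = 0.017). At 3 h the ratio of IFIT1 had been -0.90, and it is shown here for that change of sign. Promoter stretches of IFIT1 (chr10:89392448-89392589, plus strand) and IFIT3 (chr10:89327782-89327944, plus strand) on GRCh38.p14 are printed with matches to GAAANNGAA, most of the interferon-stimulated response element, or its reverse complement in capitals.
IFIT1: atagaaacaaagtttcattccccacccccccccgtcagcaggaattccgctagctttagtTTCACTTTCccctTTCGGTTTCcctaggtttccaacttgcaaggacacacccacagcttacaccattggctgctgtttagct
IFIT3: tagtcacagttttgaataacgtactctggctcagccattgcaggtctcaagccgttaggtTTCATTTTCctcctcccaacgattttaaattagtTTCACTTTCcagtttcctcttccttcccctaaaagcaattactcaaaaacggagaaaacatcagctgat

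Both promoters held 2 such matches, all on the reverse strand. In the 38 promoters of this list that the table holds, 21 (55.3%) had at least 1 match within 250 bases upstream, against 7.06% of all promoters. Of the genes with a match only IFIT1, IFIT3 and SAMD9 were called. Most measured genes with a match were not called, among them ISG15 with 3 and IFIH1 with 4 matches. Without pair A or without pair C 0 of the interferon-stimulated genes were called.

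Genes of mitosis were the group with the lowest median. All 36 measured genes had a mean ratio below 0, and the median was -0.71. Only 3 were called lower, where 1.13% of all genes were. The medians were -1.23 in pair A, -0.08 in pair B and -0.83 in pair C. CDC20, the activator of the anaphase-promoting complex, had levels of 11.04, 12.10 and 11.19 in treated cultures and of 12.25, 12.39 and 12.41 in controls. Treated B lay 0.15 log2 units below the lowest control. Its ratio was -0.91 ± 0.18 (adjusted p = 0.040). KIF20A, a kinesin of the cleavage furrow, fell by 1.08 ± 0.24 and AURKB, the kinase of the chromosomal passenger complex, by 0.71 ± 0.16. In a bulk culture, fewer cells in a phase and less RNA per cell cannot be told apart.

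The number of mitosis genes called differed most without pair B. That pair had the ratio nearest to 0 for 33 of the 35 genes measured in all pairs. Without pair B 19 of the 36 were called lower, and without pair A or without pair C 0 were. The ratio of MKI67, the proliferation marker, was -1.92, -0.34 and -0.61 in pairs A, B and C, and that of CDK1 was -1.22, 0.07 and -0.47. The 43 genes of G1/S and DNA replication had a median of -0.22 with 0 called, and FANCD2, a Fanconi anaemia protein of DNA crosslink repair, was the single repair gene called lower, at -0.94 ± 0.12, with ratios of -1.02, -0.98 and -0.83.

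**Figure D3:**
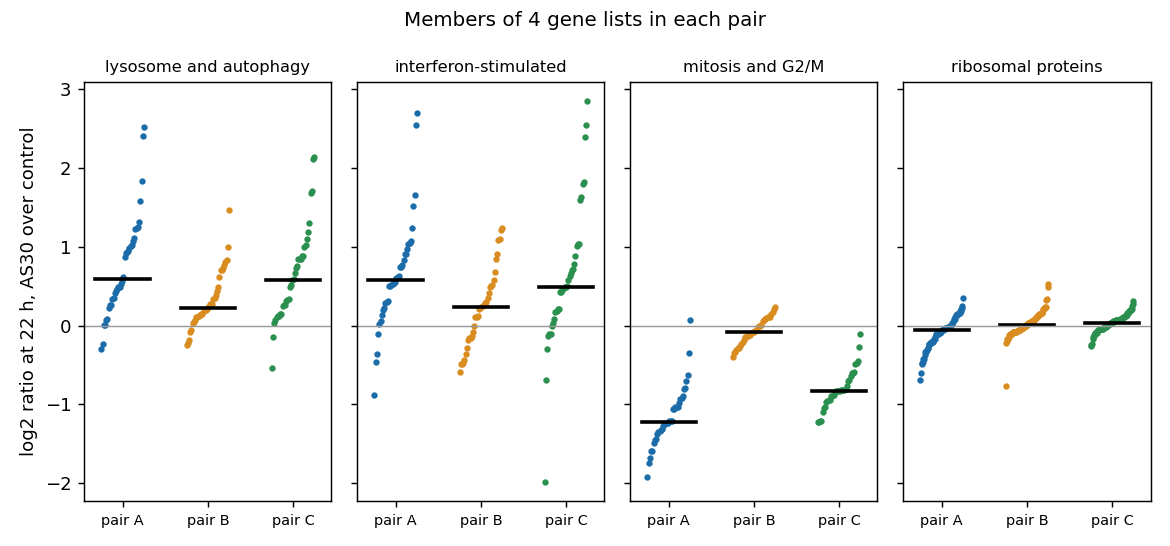
Log2 ratio of AS30-treated over control cells at 22 h (y axis) for the members of 4 gene lists in the pairs A, B and C (x axis), with points sorted by value within a pair and a black line at the median. Lysosome and interferon-stimulated genes lie mostly above 0 in each pair, mitosis genes lie below 0 in pairs A and C, apart from 1 gene in pair A, and around 0 in pair B, and ribosomal protein genes scatter around 0.

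The ranking of single genes added others outside these lists. Besides ACSS2, the largest rises among genes well above background on all 6 arrays were those of RHCG, an ammonium transporter (2.51 ± 0.29), MVD, TM7SF2, CCN3, a matricellular protein (2.25 ± 0.30), CACNG6, a calcium channel subunit (2.24 ± 0.18), HDAC5, a histone deacetylase (2.16 ± 0.27), MSMO1, INSIG1, TFPI, FDPSP2 and IDI1. CACNG6 had the most even ratios of these, 2.37, 2.27 and 2.08. Both other probes of HDAC5 were called higher, whereas a second CCN3 probe had a ratio of 1.38 and was not called. Sterol and acetate genes thus made up 6 of the 12 leading rises, a count to which the pseudogene FDPSP2 is not added. ALDOC, the brain form of the glycolytic aldolase, was higher still at 3.35 ± 0.35, but its controls were well above background on 1 of 3 arrays, and none of the other 20 glycolysis enzymes was called.

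The largest falls were those of AQP3, a water and glycerol channel, KRT4, a keratin of mucosal epithelium, DDC, which makes dopamine and serotonin, and ESAM, a junctional adhesion molecule. AQP3 had levels of 8.43, 7.01 and 7.17 in treated cultures A, B and C and of 10.08, 9.87 and 8.83 in controls. All treated levels lay below all control levels, and pair B had the largest fall, unlike in the lists above. The ratio was -2.06 ± 0.39 (adjusted p = 0.033), and a second AQP3 probe was called lower at -1.87. KRT4 fell by 1.91 ± 0.27, DDC by 1.90 ± 0.19 and ESAM by 1.78 ± 0.25. A second ESAM probe had a ratio of -0.83 and was not called. When slide was held as a block the ratios of AQP3 and DDC were -1.30 and -1.11, smaller than in the pairs, and neither was called.

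EGR1, an immediate-early transcription factor, fell by 1.66 ± 0.24, with levels of 11.14, 9.70 and 11.89 against 12.60, 12.08 and 13.04. GFRA4 and GFRA1, coreceptors of the GDNF family, fell by 1.56 ± 0.28 and 1.38 ± 0.29. TM4SF4, a tetraspanin-like membrane protein, had ratios of -1.48, -1.75 and -1.32, although its levels overlapped, because treated and control cultures C were both low (10.18 and 11.49, against 11.53 or more in the others). The list of largest falls ends with the noncoding RNA H19, KRT18P47, SLC17A3 and ACTL8, at -1.50, -1.41, -1.37 and -1.27. KRT18P47 is a pseudogene of keratin 18, and its probe may also read its parent gene, which was not tested. KRT18 itself was not called, with levels of 17.37, 17.25 and 17.13 in treated cultures and 17.43, 17.32 and 17.27 in controls.

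Other called genes came singly or in small groups, where 2.71% of all genes were called higher and 1.13% lower. In the coagulation and plasminogen list 4 of 18 genes were higher and 0 lower, with a median of 0.56. They were TFPI, the inhibitor of tissue factor (2.10 ± 0.30), PLAT, the tissue plasminogen activator (1.11 ± 0.19), PLAUR, the urokinase receptor (1.02 ± 0.17) and SERPINE2, a protease inhibitor (0.77 ± 0.15). TFPI had levels of 13.37, 12.52 and 13.85 in treated cultures and of 11.06, 10.85 and 11.51 in controls, with no overlap. In the ATF4 and amino acid list 3 of 28 genes were lower, ASNS, which makes asparagine (-0.90 ± 0.12), and PSAT1 and PHGDH of serine synthesis (-0.90 ± 0.17 and -0.66 ± 0.15), with 2 measured pairs for PSAT1. A second ASNS probe had a ratio of -0.51 and was not called.

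Among stress genes, the small heat shock proteins CRYAB and HSPB8 were higher (2.35 ± 0.33 and 1.04 ± 0.19) among 22 measured chaperones, with CRYAB well above background on 1 of 3 control arrays. The p53 list had 2 of 29 genes higher, TP53INP1 (1.44 ± 0.19) and PHLDA3 (0.67 ± 0.14). Over all genes 2.71% were called higher, so the few calls in these stress lists are not read as changes of the lists. The proapoptotic BMF, whose controls were well above background on 1 of 3 arrays, and the caspase inhibitor CFLAR were higher among 29 BCL2 family and caspase genes. DNAJB9 was the only unfolded protein response gene called, and SOD2, the mitochondrial superoxide dismutase, the only one of 32 NF-kB targets and cytokines (1.58 ± 0.29). None of the 32 NRF2 genes, 11 metallothionein and zinc genes or 18 acute-phase genes was called.

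Of the remaining lists, the hypoxia list had 2 of 24 genes higher (NDRG1 and BNIP3L) and the histone list 2 of 52 (H1-2 and H2AC18). The fatty acid oxidation list had 1 of 18 (PPARA) and the junction and keratin list 1 of 30 (KRT19, 1.21 ± 0.20). Over all genes 2.71% were called higher and 1.13% lower, so the few calls in these lists are not read as changes of the lists. The treated mean of PPARA was at least 2.65-fold higher, with no control array well above background. Its ratios were 2.14, 0.49 and 1.78 in pairs A, B and C. NR4A3 was higher and EGR1 lower among 28 immediate-early genes. In the alveolar list SFTPA1, a surfactant protein, and AQP3 were lower among 21. Ribosomal proteins (73 genes), oxidative phosphorylation (52), clock, YAP and TGF-beta genes had 0 calls, with medians of -0.01 and 0.04 for the first 2.

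Markers of other cell types were measured as well, since the culture should hold none. Of 12 leukocyte markers 5 were not well above background on any of the 6 arrays. On all 6 were 4 of them, CD3E, CD14, CD68 and TYROBP, of which CD68 alone was called. The summed linear signal of the 12 was 2175 to 4097 in treated cells and 1272 to 1566 in controls. CD68, a lysosomal membrane glycoprotein that is also used as a macrophage marker, rose by 1.67 ± 0.25. ITGAX, an integrin chain, was at least 5.49-fold higher with no control array well above background, and CSF1R was called on the ratio of pair C alone. Those not well above background anywhere included PTPRC, the common leukocyte antigen, CD3D, MS4A1 and HLA-DRA, and the part of the others in the higher lysosome and interferon-stimulated genes was not tested. The sums of 8 endothelial markers (92.9 to 167 in treated cells, 108 to 139 in controls) overlapped, as did those of 9 fibroblast markers (5401 to 6527 and 5213 to 10838), among which LUM, a matrix proteoglycan, was called lower on the ratio of pair C alone, with no treated array well above background. Before spots were filtered, LUM levels were 3.78, 2.85 and 3.66 in treated cultures A, B and C and 3.44, 2.90 and 7.08 in controls, so that control C alone stood out. The fibroblast markers COL1A1 and THY1 were well above background on all 6 arrays and not called. THY1 had levels of 12.64, 12.56 and 12.35 in treated cultures and of 12.30, 13.38 and 13.08 in controls.

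Of the genes that the study discusses, MMP1, the interstitial collagenase, was called higher on 1 ratio. It was well above background on the 3 treated arrays and on none of the controls, and the only measured ratio is that of pair C, 4.04, whose adjusted p of 0.035 rests on the spread of the 3 h pairs. The treated levels of MMP1 were 9.96, 5.80 and 9.05, with B again far below A and C. MMP9 (0.05 ± 0.17), MMP10 (0.85 ± 0.47, 2 measured pairs), TNF (0.13 ± 0.16) and IL1B (0.69 ± 0.81) were not called, the last 2 with no control array well above background, and GAPDH stood at 0.06 ± 0.12. TIMP4, an inhibitor of these proteases, was the other gene called higher among 17 metalloproteinases and TIMPs, at 0.66. The 3 ratios of IL1B were 2.27, -2.28 and 2.08.

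**Figure D4:**
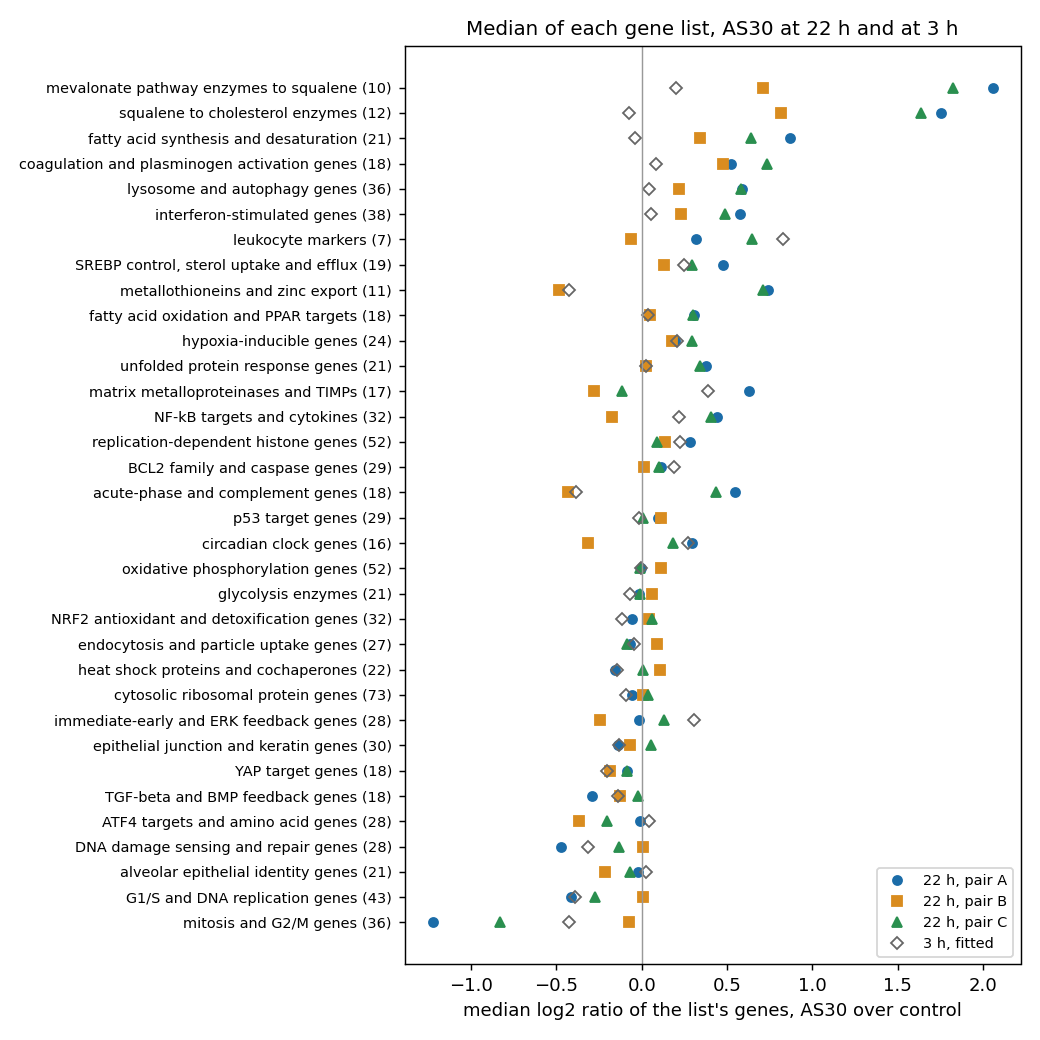
Median log2 ratio of AS30-treated over control cells (x axis) for 34 gene lists of 7 or more measured genes (y axis, number of genes in brackets), in the pairs A, B and C at 22 h (filled symbols) and over the fitted values at 3 h (open diamonds). Both lists of cholesterol synthesis lie to the right of all others in pairs A and C at 22 h and near 0 at 3 h, and mitosis genes lie lowest in those 2 pairs.

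The same fit gave the ratios of AS30 at 3 h, over controls of its own. There the 17 sterol enzymes lay between -0.48 and 0.52 and 0 of them were called, and the medians were 0.20 up to squalene and -0.08 after it. For the single genes the difference between the recovery times did not pass the threshold (adjusted p = 0.076 to 0.23 in limma over the 17 enzymes). Other genes called higher at 22 h had been called higher at 3 h too. They included MMP1 (6.04 at 3 h), BMF (2.74), TP53INP1 (2.16), ITGAX (2.05), TFPI (1.69), RHCG (1.54), SOD2 (1.47) and PLAUR (1.34). ABCG1, lower at 22 h, was called higher at 3 h (1.24). The mitosis list had a median of -0.43 at 3 h with 0 called. Over all probes, 8 of 28086 differed between 22 h and 3 h (0.0285%), and 4735 had an unadjusted p under 0.05. Among the 8 were IFIT1, higher at 22 h by 2.46 ± 0.27 (adjusted p = 0.047), and THBD, thrombomodulin, which had ratios of 0.51, 0.53 and 0.75 at 22 h and a mean of -1.12 at 3 h (difference 1.72 ± 0.19, adjusted p = 0.049). CLDN4, a claudin, was also among them, with no control array at 22 h well above background. These were named after their values were seen.

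Against SM30 at 3 h, where both particle and recovery time differ, 167 of 28154 probes (0.593%) were called. Of the 22 sterol enzymes, TM7SF2 (difference 2.22 ± 0.35, adjusted p = 0.047) and EBP, the isomerase of the ring double bond (1.24 ± 0.19, adjusted p = 0.042), were among them. TM7SF2 had a ratio of 0.07 and EBP of -0.07 after SM30. Lysosomal LIPA was called in this contrast too (1.05 ± 0.17, adjusted p = 0.047), with -0.05 after SM30. Of the other enzymes IDI1 had a ratio of 1.74 ± 0.44 after SM30 at 3 h, just short of a call (adjusted p = 0.051 in limma). INSIG1 had one of 1.43 there and was called (adjusted p = 0.023).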

How the data were processed

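RNA of 3 AS30-treated and 3 control A549 cultures at 22 h was measured on one-colour arrays. The authors deposited one Agilent Feature Extraction 10.5.1.1 file per array, whose intensity columns are linear and background-corrected, and an expression table of quantile-normalized linear intensities, used as an alternative. With R 4.3.3 and limma 3.58.1, the log2 processed signals of non-control spots were quantile-normalized over 18 arrays, spots not positive and significant and outlier spots were set to missing, replicate spots were averaged, and probes with over 33% missing values were removed, leaving 28665. Probe positions are on hg18. Ratios were taken between arrays of the same letter, since the methods divide by a corresponding control. The 9 ratios of the series entered 1 limma fit with a mean for each of 3 classes, which left 6 residual degrees of freedom. Benjamini-Hochberg adjustment ran across all tested probes, with a threshold of 0.05. A bound ("at least N-fold") is between group means, not single cultures. It was set against the lowest signal well above background on each array, or the probe's own signal where higher. On simulated data the fit recovered 51% of log2 changes of 1 and 87% of changes of 2.

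Named genes are the 12 largest rises and falls called with 3 ratios of one sign and 6 arrays well above background, up to 4 called genes each way in each of 37 lists, members of the sterol, SREBP and fatty acid lists and the genes the study discusses, with the probe of highest mean signal for each gene. The genes, the lists and the 4 promoter motifs were chosen with earlier results of these data known. The 14 alternatives covered scaling, background, filters, the deposited table, pairing, slide and each pair left out. Symbols of 23958 probes came from their accession through RefSeq. The number of arrays limits the precision, the letters name separate cultures, and columns not used numbered 0. Some list members were counted in their lists and are not reported singly here.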

Additional observations from a re-analysis of the deposited data

Results flagged for a closer look

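Some ratios at 22 h differed from those of another class by the test of the difference itself in limma. Each class had 3 pairs, and the standard errors use a spread pooled over all classes. Between AS30 at 22 h and AS30 at 3 h, the difference was 2.46 ± 0.27 log2 units for IFIT1 (adjusted p = 0.047) and 1.72 ± 0.19 for THBD (0.049), both of them with a ratio below 0 at 3 h and above 0 at 22 h.

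Between AS30 at 22 h and SM30 at 3 h the difference was positive for ALDOC (3.29 ± 0.50, adjusted p = 0.042), IFIT1 (2.39 ± 0.27, 0.020), TM7SF2 (2.22 ± 0.35, 0.047), CACNG6 (2.06 ± 0.26, 0.031), EBP (1.24 ± 0.19, 0.042) and LIPA (1.05 ± 0.17, 0.047). It was negative for ABCG1 (-1.67 ± 0.27, 0.047) and SLC17A3 (-1.60 ± 0.24, 0.042). ALDOC and ABCG1 were well above background on 1 of 3 control arrays at 22 h. Particle, recovery time and slide differ together in this contrast and cannot be told apart.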

How the results depend on the processing

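The number of probes called at 22 h (1008, with 716 higher and 292 lower) was 890 (193 lower) under 75th-percentile scaling, 508 (431 and 77) with no filter on dim spots, 0 when the 3 ratios were fitted alone (where 4915 had an unadjusted p under 0.05), 29 (15 and 14) with slide as a fixed block and 1926 (1233 and 693) with slide as a random block. The random-block fit used an estimated correlation within slides of -0.08, so its larger counts here and below are not read as a stronger result. Leaving out 1 pair gave 2 to 1205 calls, 1 to 867 higher and 1 to 338 lower. Without the replicate block, the 18 arrays fitted as 6 groups gave 1408 calls, 963 higher and 445 lower, of which 775 were among the 1008. Same-letter arrays deviated together with r of 0.10, 0.09 and 0.20 for A, B and C, so the letters pair the arrays weakly at most.

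For 22 h against 3 h, 8 calls became 0 under 75th-percentile scaling (4750 with an unadjusted p under 0.05), 3 in the authors' deposited table, 3 with no filter and 3 with probes well above background on all 6 arrays, 319 with slide as a random block and 0 to 98 with 1 pair left out. Without the replicate block 69 were called. For 22 h against SM30 at 3 h, 167 calls became 450 after normexp correction, 94 in the authors' table, 69 with no filter, 346 with probes well above background on all 6 arrays, 23 when slide was a fixed block, 598 when it was a random one and 2 to 158 with 1 pair left out. Without the replicate block 419 were called.

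None of the 90 named genes called reversed its direction in any alternative that measured it. With slide as a fixed block 1 was still called (ITGAX), without pair A 0, without pair C 16 of 86 and without pair B 74. The list medians moved by less than the spread between pairs in 487 of 517 cases, but with slide as a fixed block in 26 of 37. The treated culture B and the place of the controls on slides were not tested apart from the treatment. For 184 calls the dimmer group, treated or control, or both groups had no array well above background, which leaves a bound or no size.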
